A study of Mus musculus with 12 samples.

Results

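The genes described are 6 members of the interleukin-6 (IL-6) family signaling pathway: the receptor chains Lifr, Il6ra, Il6st and Osmr, the signal transducer Stat3 and its inhibitor Socs3. They were picked by gene symbol, with Lifr placed first because of its FPKM values in these same 12 livers, and make up 6 of the 54532 genes in the table. Of the 6, 5 were among the 11083 genes that had a mean of at least 1 FPKM (read fragments per kilobase, scaled to the size of the library) over all mice, and Osmr was below that level. Because measured values chose the genes, their levels and differences are given as a description, without a test.

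The livers came from male C57BL/6J mice that were 5 weeks old at the start and spent 26 weeks on 1 of 4 diets, with 3 mice per group. ND-fed mice received a normal diet, control mice a high-fat diet (HFD), HYA-treated mice the HFD with 1% HYA, and LA-treated mice the HFD with 1% LA. LA is linoleic acid, and HYA (10-hydroxy-cis-12-octadecenoic acid) is a product of LA made by lactobacilli of the gut, with a hydroxyl group in place of a double bond. The study used this diet as a model of fatty liver with fibrosis and asked how HYA and its parent fatty acid act on the liver.

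Cytokines of the IL-6 family signal through a shared receptor chain, gp130, which is the product of Il6st. IL-6 first binds its own receptor (Il6ra), whereas leukemia inhibitory factor and cardiotrophin pair gp130 with LIFR, and oncostatin M in the mouse pairs it mainly with OSMR. The assembled receptor activates Janus kinases, which phosphorylate STAT3; in hepatocytes STAT3 turns on acute phase genes and also Socs3, whose product binds gp130 and shuts the signal down.

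The starts of Lifr and Socs3 are shown here because Lifr varied most with diet and Socs3 is a textbook STAT3 target. The windows are from RefSeq (GRCm38.p6), run from 250 bases before to 50 bases after an annotated start, and are written 5′ to 3′ on the strand of the gene. Capitals mark the STAT-type motif TTCNNNGAA and the TATA motif TATAA.
Lifr, upstream window, chr15:7129322-7129621, plus strand: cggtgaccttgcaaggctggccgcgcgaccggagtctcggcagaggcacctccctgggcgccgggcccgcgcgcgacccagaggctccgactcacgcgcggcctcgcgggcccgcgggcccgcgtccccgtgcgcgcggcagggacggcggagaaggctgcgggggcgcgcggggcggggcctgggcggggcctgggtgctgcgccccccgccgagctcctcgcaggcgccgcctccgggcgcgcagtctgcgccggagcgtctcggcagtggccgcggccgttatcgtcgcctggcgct
Lifr, downstream window, chr15:7140292-7140591, plus strand: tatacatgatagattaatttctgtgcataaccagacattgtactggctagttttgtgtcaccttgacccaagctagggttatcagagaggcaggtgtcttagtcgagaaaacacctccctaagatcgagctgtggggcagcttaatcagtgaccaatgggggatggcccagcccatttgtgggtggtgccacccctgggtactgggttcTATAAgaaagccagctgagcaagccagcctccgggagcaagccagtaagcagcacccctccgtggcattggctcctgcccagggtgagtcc
Socs3, chr11:117969317-117969616, minus strand: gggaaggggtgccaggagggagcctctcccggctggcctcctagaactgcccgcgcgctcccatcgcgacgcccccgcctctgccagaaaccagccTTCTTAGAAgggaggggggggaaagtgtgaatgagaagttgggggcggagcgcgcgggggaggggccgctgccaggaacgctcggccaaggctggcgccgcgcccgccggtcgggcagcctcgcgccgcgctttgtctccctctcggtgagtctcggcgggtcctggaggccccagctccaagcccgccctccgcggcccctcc

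Lifr has a pair of RefSeq windows that differ in composition. The GENCODE annotation of this build also has Lifr starts without a window, at chr15:7090614 (Lifr-208) and chr15:7154353 (Lifr-203). The upstream window is therefore not at the first annotated start of the gene. The upstream window has a GC content of 81.3% with 53 CpG dinucleotides, and the downstream window 53.3% with 4, beside medians of 52.7% and 7 over 32851 RefSeq windows of this length. TATAA, searched on both strands, begins 41 bases before the downstream start and is not in the upstream window, and 24.9% of all windows hold it. TTCNNNGAA reads the same on both strands and does not overlap TATAA. It begins 154 bases before the RefSeq start of Socs3 and is in 8.30% of all windows. The whole Socs3 window lies inside the gene as placed in the table, which starts at chr11:117970047 on the minus strand. The motif is therefore downstream of that start. TTCNNNGAA was not found in the windows of Lifr, Il6ra, Il6st, Osmr or Stat3. The Osmr window also lies inside its gene, which starts at chr15:6874969 on the minus strand. The table gives 1 value per gene, so neither the 8 Lifr transcripts of the GENCODE annotation of this build nor membrane and soluble receptor forms can be told apart.

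Library depth was 17169064 to 25220880 gene-assigned fragments, and 3 fragments on a gene of 2 kb, taken as a floor, correspond to 0.0607 to 0.0944 FPKM, which covers counting error only. The 8 hepatocyte markers were all tested, and their summed level was 42232 to 43466 FPKM in ND-fed, 27381 to 31419 in control, 35452 to 36700 in HYA-treated and 30451 to 30890 in LA-treated mice. The 8 stellate cell markers summed to 57.0 to 71.8 FPKM in ND-fed, 98.1 to 121 in control, 89.6 to 102 in HYA-treated and 108 to 129 in LA-treated mice. The 8 sinusoidal endothelial markers summed to 66.4 to 81.0 FPKM in ND-fed mice and to 87.6 to 95.9 in the other groups. The 8 macrophage markers summed to 200 to 310 FPKM over all mice. Of the 7 neutrophil markers, Ly6g and Camp were at or under 3 fragments in every liver, and the list summed to 1.38 to 7.09 FPKM. The 7 bile duct and 7 lymphocyte markers summed to at most 21.2 and 4.11 FPKM. The part of these markers in the results was not tested.

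Lifr (ENSMUSG00000054263, chr15:7090614-7197489, plus strand), the receptor chain for leukemia inhibitory factor, was lowest in control and LA-treated mice, intermediate in HYA-treated mice and highest in ND-fed mice. Its levels were 37.4, 37.7 and 32.1 FPKM in ND-fed mice 1 to 3 and 9.87, 10.9 and 10.8 FPKM in control mice 1 to 3. They were 24.1, 21.5 and 17.9 FPKM in HYA-treated mice and 8.97, 12.5 and 11.9 FPKM in LA-treated mice. Every ND-fed liver was above every HYA-treated liver, every HYA-treated liver was above all control and LA-treated livers, and the ranges of the control and LA groups overlapped. The group means were 35.7 ± 3.14, 10.5 ± 0.564, 21.2 ± 3.08 and 11.1 ± 1.87 FPKM (SD, n = 3) for ND, control, HYA and LA. In bulk liver, fewer cells of a type and less RNA per cell cannot be told apart.

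On the log2(FPKM + 1) scale Lifr was lower in control than in ND-fed mice by a log2 fold change of -1.67 ± 0.13 (SE; 95% interval -1.95 to -1.39), which was the 72nd lowest of 11083 genes. HYA-treated mice were above control mice by 0.94 ± 0.13 (0.66 to 1.22), the 50th highest difference of that comparison. HYA-treated mice remained below ND-fed mice, with a difference of -0.73 (-1.01 to -0.45). LA-treated mice differed from control mice by 0.06 (-0.22 to 0.34), an interval that includes 0. Between the related fatty acids at the same dose, the HYA group was above the LA group by 0.88 ± 0.13 (0.60 to 1.16), or 1.91-fold in mean FPKM. The order of ND above HYA above both control and LA, with no overlap, was found for 355 of 11083 genes (3.20%), and the reverse order for 300 genes (2.71%). Among the 355 genes, Lifr had the 37th largest decrease from ND to control.

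**Figure D1:**
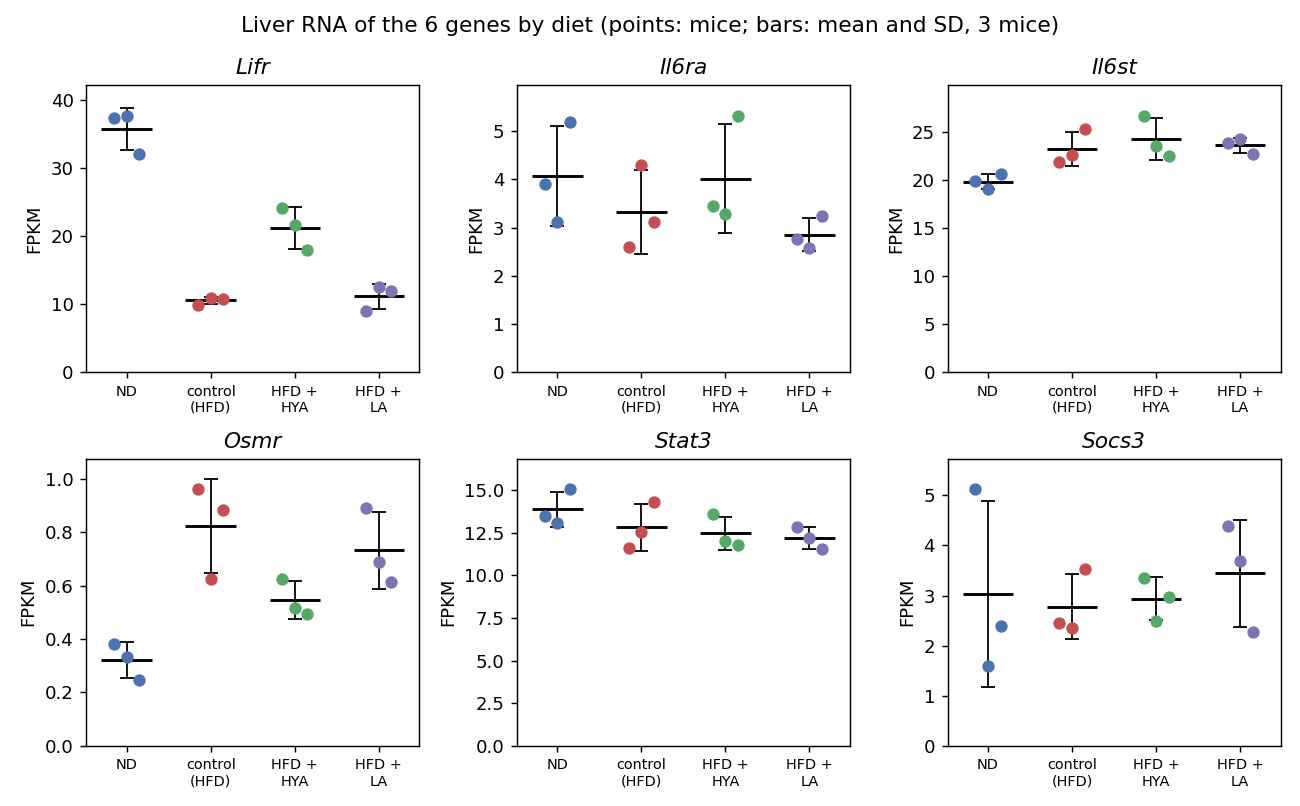
FPKM (y axes, from 0) of the 6 genes in the 4 diet groups; points are mice, and horizontal and vertical bars are the mean and SD of 3 mice. Lifr falls from 32.1 to 37.7 FPKM in ND-fed mice to 9.87 to 10.9 FPKM in control mice, with HYA-treated mice at 17.9 to 24.1 FPKM, whereas Stat3 stays between 11.6 and 15.1 FPKM.

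Il6ra (ENSMUSG00000027947, chr3:89864059-89913196, minus strand), which gives IL-6 its specificity, varied more between mice of a group than between diets. Its levels were 3.91, 3.13 and 5.18 FPKM in ND-fed mice and 2.59, 4.29 and 3.11 FPKM in control mice. They were 3.45, 3.28 and 5.32 FPKM in HYA-treated mice and 2.75, 2.57 and 3.24 FPKM in LA-treated mice. Control mice overlapped with each of the other groups, and the HYA and LA groups did not overlap, since the lowest HYA-treated liver was just above the highest LA-treated liver. The log2 fold change was -0.23 ± 0.19 for control against ND, 0.21 ± 0.19 for HYA against control and 0.36 ± 0.19 for HYA against LA, and all 3 intervals include 0 (the last is -0.06 to 0.78). The antisense gene Gm42809 shares 281 bases with Il6ra and had a mean of 0.177 FPKM. The strand setting of the counting is not given in the sources used here, so reads of the overlap are uncertain.

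Il6st (ENSMUSG00000021756, chr13:112464070-112510086, plus strand), the shared chain gp130, was lower in ND-fed mice than in the other groups. Its levels were 19.9, 19.0 and 20.6 FPKM in ND-fed mice and 21.8, 22.6 and 25.3 FPKM in control mice. They were 26.7, 23.5 and 22.5 FPKM in HYA-treated mice and 23.8, 24.3 and 22.8 FPKM in LA-treated mice. All 3 ND-fed livers were below the other 9 livers, and the 3 groups on the HFD overlapped. The log2 fold change was 0.22 ± 0.07 for control against ND and 0.06 ± 0.07 for HYA against control. When each column was scaled to the same total (TPM), these became 0.44 and -0.06, so the direction of the second depends on the scaling. HYA-treated and LA-treated mice differed by 0.03 (-0.13 to 0.19), and under TPM by -0.08.

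Osmr (ENSMUSG00000022146, chr15:6813577-6874969, minus strand), the oncostatin M receptor chain, was the least abundant of the 6 genes, and its diet pattern ran opposite to that of Lifr. Its levels were 0.381, 0.333 and 0.248 FPKM in ND-fed mice and 0.960, 0.626 and 0.885 FPKM in control mice. They were 0.626, 0.515 and 0.494 FPKM in HYA-treated mice and 0.891, 0.689 and 0.615 FPKM in LA-treated mice. All control, HYA-treated and LA-treated livers were above the 3 ND-fed livers, while the lowest control liver and the highest HYA-treated liver were equal to 3 digits. These values rest on 54 to 250 fragments per liver. Mean FPKM in control mice was 2.57 times that in ND-fed mice, and mean FPKM in HYA-treated mice was 0.662 times that in control mice. In a fit without the filter on low values the log2 fold changes were 0.46 ± 0.09 and -0.24 ± 0.09. The added 1 FPKM compresses differences at this level, and voom (limma's model for counts) on the recovered fragments gave 1.36 and -0.59. The difference between HYA and LA was -0.16 (-0.36 to 0.03).

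Lifr and Osmr are neighbors on chromosome 15, on opposite strands and separated by 215644 bases that hold no protein-coding gene in the table. Across the 12 livers their levels had a Pearson's r of -0.89, but the r of their deviations from the group means was -0.17, so the opposed pattern lay between the diets and not between mice of a diet. The points share their libraries and the group structure. Rictor, on the far side of Osmr, had means of 1.78, 1.55, 1.70 and 1.55 FPKM in ND, control, HYA and LA, the order of Lifr over a narrower range. Egflam, on the far side of Lifr, had means of 0.0899, 0.198, 0.127 and 0.156 FPKM, the order of Osmr. These values are near the floor of 0.0607 to 0.0944 FPKM taken for a gene of 2 kb, so that order is uncertain.

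Stat3 (ENSMUSG00000004040, chr11:100885098-100939540, minus strand), the transcription factor activated by these receptors, differed little between diets at the RNA level. Its levels were 13.5, 13.1 and 15.1 FPKM in ND-fed mice and 11.6, 12.5 and 14.3 FPKM in control mice. They were 13.6, 12.0 and 11.8 FPKM in HYA-treated mice and 12.8, 12.2 and 11.6 FPKM in LA-treated mice. The LA-treated livers were all below the ND-fed livers, and the 3 HFD groups overlapped with each other, as did control and HYA with ND. The log2 fold change of control against ND was -0.11 ± 0.08 and turned to 0.11 under TPM, so no direction can be given. HYA against LA was 0.03 (-0.16 to 0.21) and under TPM -0.08. The RNA level does not report phosphorylation of STAT3. Stat3 shares 72 bases with Stat5a on the opposite strand, so reads of that overlap are uncertain.

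Socs3 (ENSMUSG00000053113, chr11:117966079-117970047, minus strand), the feedback inhibitor, varied mostly between mice fed the same diet. Its levels were 5.12, 1.59 and 2.39 FPKM in ND-fed mice and 2.46, 2.35 and 3.52 FPKM in control mice. They were 3.35, 2.50 and 2.97 FPKM in HYA-treated mice and 4.38, 3.68 and 2.28 FPKM in LA-treated mice. The highest and the lowest of all 12 livers were both ND-fed, and all groups overlapped. The log2 fold changes were -0.01 for control against ND, 0.07 for HYA against control, 0.22 for LA against control and -0.15 for HYA against LA, each with an SE of 0.28. Without ND-fed mouse 1 the first was 0.34, without ND-fed mouse 2 it was -0.28, and under TPM the first was 0.16 and the second -0.02, so no direction can be given.

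Socs3 is switched on quickly by many stimuli, and 13 immediate early genes, which respond within minutes to handling or feeding as well as to cytokines, are given beside it. Their summed level was 119, 54.4 and 69.7 FPKM in ND-fed mice 1 to 3, the same mice in which Socs3 was highest, lowest and in between, and 90.3 to 114 FPKM in the other 9 livers. Over the 12 livers, deviations of Socs3 from the group means had an r of 0.84 with those of Egr1, 0.89 with Ier2, 0.83 with Dusp1 and 0.86 with Btg2. These 4 are the highest of the 13 genes and were singled out after the values were seen. For the levels themselves the r was 0.79, 0.60, 0.79 and 0.40 in the same order. In control against ND, 6 of the 12 tested immediate early genes passed as higher and 0 as lower (50%, beside 35.3% of all genes). This share is descriptive, since the gene lists were chosen with earlier results of these data known. The log2 fold change of Socs3 in control against ND was -0.01. The part of these genes in the Socs3 values was not tested.

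The rank of the 6 genes within a liver changed with diet. In each of the 3 ND-fed livers Lifr was the most abundant of the 6 per unit of length, above Il6st. In the HYA-treated livers Lifr was below Il6st but above Stat3. In the 3 control livers and in LA-treated liver 1 it was below both. In LA-treated livers 2 and 3 it was 12.5 and 11.9 FPKM, just above Stat3 with 12.2 and 11.6 FPKM. Il6ra, Socs3 and Osmr were below Lifr, Il6st and Stat3 in every liver.

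**Figure D2:**
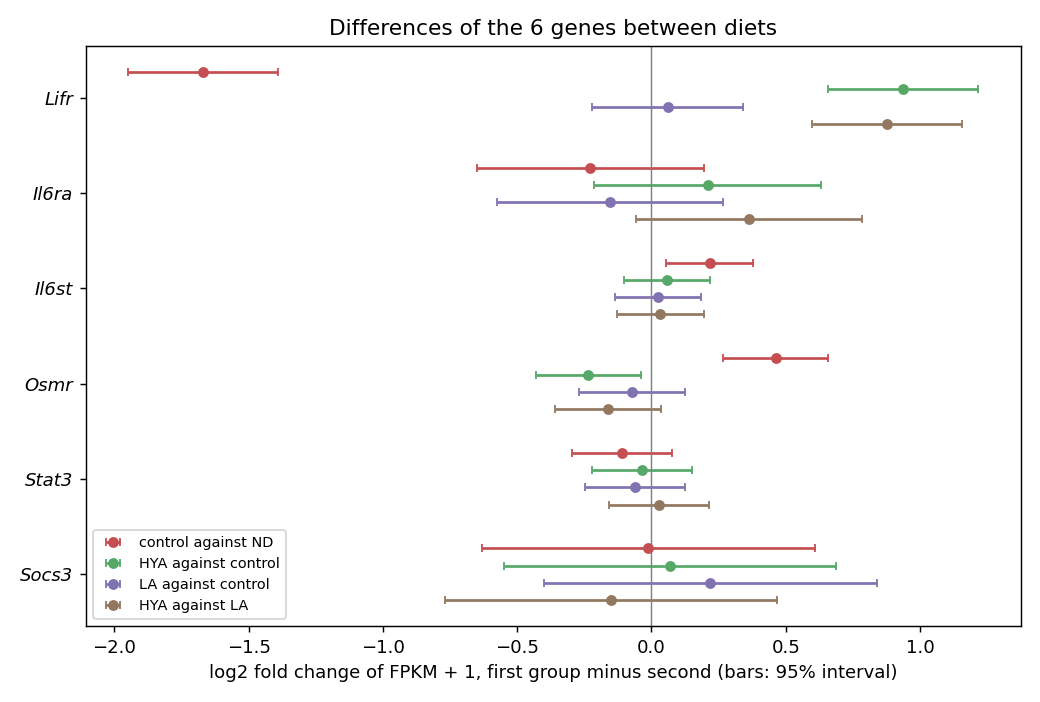
Log2 fold change of FPKM + 1 (x axis, first group minus second) for the 6 genes in 4 comparisons; points are estimates and bars 95% intervals. Lifr lies at -1.67, 0.94, 0.06 and 0.88, whereas the estimates of the other genes lie between -0.24 and 0.46.

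Within groups, Il6st and Stat3 deviated together, with an r of 0.92 for their deviations from the group means over the 12 livers and -0.07 for their levels. This was the highest value among the 15 pairs of the 6 genes, and the points share library and scaling. The lower level of Il6st in ND-fed mice, where Stat3 was not lower, separates the ND-fed livers from the other 9 in the plot of Stat3 against Il6st.

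**Figure D3:**
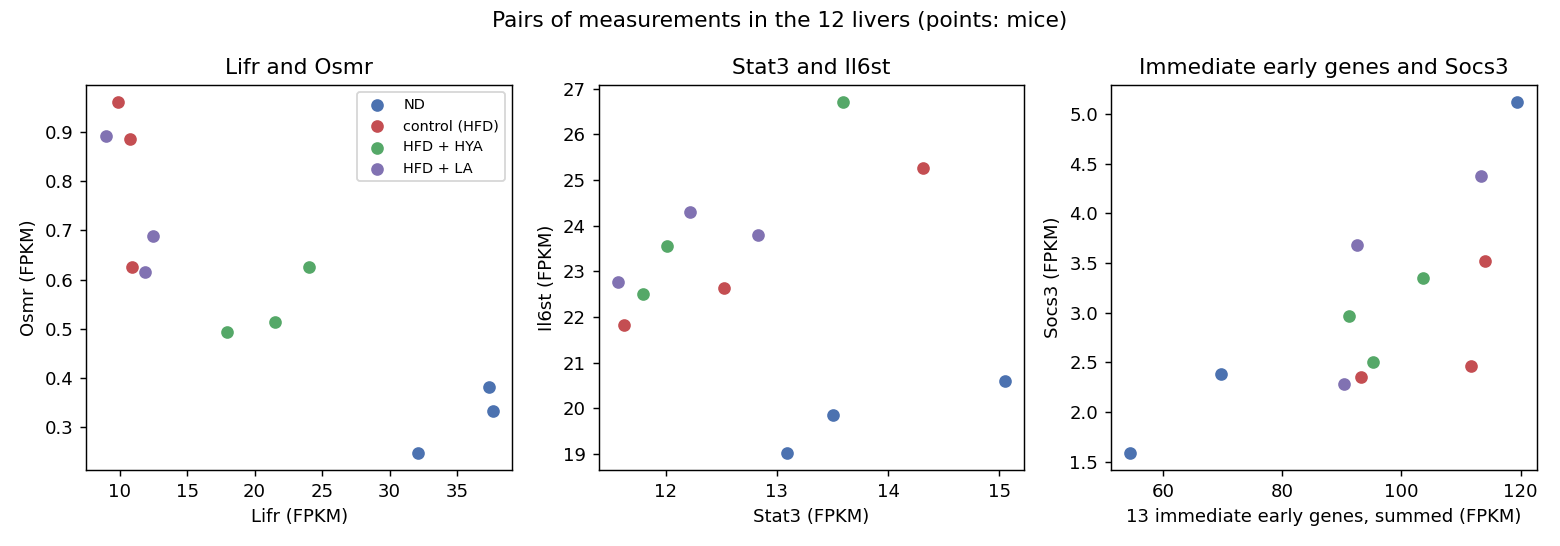
FPKM per liver for Lifr against Osmr, Stat3 against Il6st, and the sum of 13 immediate early genes against Socs3; points are the 12 mice, colored by diet. ND-fed mice lie at high Lifr and low Osmr and at Il6st of 19.0 to 20.6 FPKM, and the ND-fed mice with immediate early sums of 119 and 54.4 FPKM have the highest and lowest Socs3.

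For the count of genes past an adjusted p of 0.05 (limma, Benjamini-Hochberg over all genes tested), Lifr and Il6st, 2 of the 5 tested members, passed in control against ND, where 35.3% of all genes did. The ranges of control and ND did not overlap for 2 of the 5 tested members, beside 45.6% of all genes, nor for Osmr. Lifr alone passed in HYA against control (2.8% of all genes) and in HYA against LA (0.487%). The first of these calls was lost when limma was run on just the control and HYA-treated mice. Ranges did not overlap for Lifr, 1 of the 5 tested members, in HYA against control (21.6% of genes tested), nor for Osmr, which was not tested. For Osmr the lowest control and the highest HYA-treated liver were equal to 3 digits, so its groups were barely apart. In HYA against LA they did not overlap for Lifr and Il6ra, 2 of the 5 (25.2%). No member passed, or had ranges that did not overlap, in LA against control, where 0% of all genes passed, 294 genes had an unadjusted p under 0.05 and 7.55% did not overlap. The comparisons share the control mice or the HYA-treated mice, and since the members were chosen on these livers these counts are descriptive.

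Most ligands had few fragments. Il6 had at most 3 fragments in any liver and 0 in 7 of 12, and Il31 had 0 in every liver, which allows up to 3 fragments per liver. Ctf1, encoding cardiotrophin 1, was the only ligand of 11 to be tested and had group means of 2.64 FPKM in ND, 2.92 in control, 2.90 in HYA and 3.17 in LA. Its log2 fold change in control against ND was 0.10 ± 0.14, which did not pass (limma, adjusted p = 0.596).

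Clcf1, a cytokine that acts through LIFR and gp130, was below the filter at 0.270 to 0.629 FPKM in ND-fed mice, 0.845 to 1.42 in control, 0.447 to 0.764 in HYA-treated and 0.906 to 1.86 in LA-treated mice. Its ND-fed livers did not overlap with control livers (45.6% of genes tested). Its HYA-treated livers did not overlap with control (21.6%) or LA-treated livers (25.2%). Lif, the ligand for which LIFR is named, was at 0 to 0.0523 FPKM in ND-fed mice and 0.0968 to 0.310 in control mice. It was at 0.0254 to 0.119 in HYA-treated and 0.0970 to 0.144 in LA-treated mice, on at most 29 fragments. For control against ND, the fit without the filter called Clcf1 and Lif higher, and voom called Clcf1 but not Lif. Ebi3 (0.610 to 1.33 FPKM), Il27 (0 to 0.491 FPKM) and Cntf (0.0433 to 0.240 FPKM) overlapped between all groups in control against ND and HYA against control.

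In the wider pathway, of 92 genes in 5 lists (ligands, other receptor subunits and shedding, kinases with adaptors and other STATs, inhibitors, and STAT3 targets of hepatocytes) 75 were tested. In control against ND 42 of the 75 changed, 23 higher and 19 lower (56.0%, beside 35.3% of all genes). The lists were chosen with earlier results of these data known. This share and those of the single lists are therefore descriptive and do not test the pathway. Under TPM the count was 45, of which 37 were higher and 8 lower. The median log2 fold change of all genes tested was -0.04 and moved to 0.15 under TPM, so the split of directions is relative to that shift. The median over the 75 genes was 0.04.

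Among 6 tested receptor subunits and shedding factors 3 rose and 2 fell in control against ND (83.3%, beside 35.3% of all genes). The lowest adjusted p was that of Sort1, a sorting receptor that also binds ligands of this family, which was 6.31 FPKM in ND and 2.05 FPKM in control (log2 fold change -1.27 ± 0.14, limma, adjusted p = 6.45e-05). Sort1 was 2.42 FPKM in HYA and 2.35 FPKM in LA, so the HYA-treated livers were not separated from the control or LA-treated livers as they were for Lifr. Rhbdf1, a partner of the sheddase ADAM17, rose from 1.63 to 3.17 FPKM (0.66 ± 0.09, adjusted p = 0.000384). Adam10, another sheddase, and Rhbdf2 also rose, and Il11ra1, the IL-11 receptor chain, fell. Under TPM 4 of the list were higher and 1, Sort1, was lower, so the Il11ra1 call was lost.

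Of 17 tested kinases, adaptors and other STATs, 2 rose and 2 fell (23.5%, beside 35.3% of all genes). Jak3, a Janus kinase used mainly by lymphoid cytokine receptors, rose from 3.11 to 5.46 FPKM (0.65 ± 0.06, limma, adjusted p = 2.40e-05). Mapk3, which encodes ERK1 in the parallel kinase branch, rose from 16.8 to 23.6 FPKM (0.46 ± 0.06, adjusted p = 0.000271). Stat6 and Sos1 fell, and Jak1, Jak2 and Tyk2, the kinases that gp130 uses, had log2 fold changes of 0.04, 0.13 and 0.03 that did not pass. Under TPM 8 genes of the list were called higher, Jak1, Jak2 and Tyk2 among them, and 0 lower, so the Stat6 and Sos1 calls were lost.

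Of 14 tested inhibitors 1 rose and 5 fell (42.9%, beside 35.3% of all genes). Pias2, of the family of protein inhibitors of activated STATs, fell from 6.29 to 4.88 FPKM (-0.31 ± 0.06, limma, adjusted p = 0.00197), and this call was lost under TPM (adjusted p = 0.182). Socs5, of the Socs3 family, rose from 1.89 to 2.70 FPKM (0.35 ± 0.09, adjusted p = 0.00968). Pias4, Socs4, Socs6 and Socs7 fell, and these calls were lost under TPM too. That scaling called 5 inhibitors higher (Socs5, Ptpn1, Ptpn6, Pias3 and Cbl) and 0 lower, so the direction of the list depends on the scaling. Cish, which was singled out after its values were seen, resembled Socs3 in ND-fed mice with 12.5, 3.28 and 3.84 FPKM.

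Of 37 tested genes listed as STAT3 targets of hepatocytes 17 rose and 10 fell in control against ND (73.0%, beside 35.3% of all genes). Whether STAT3 controls each of the listed genes in these livers, Serpina3k included, was not tested. Their median log2 fold change was 0.19, and under TPM 20 were called higher and 7 lower. The lowest adjusted p values were those of Serpina3k, a protease inhibitor secreted by hepatocytes, which fell from 3820 to 1179 FPKM (-1.72 ± 0.14, limma, adjusted p = 1.40e-05), and of Lcn2, encoding lipocalin-2, which rose from 1.02 to 25.6 FPKM (3.67 ± 0.33, adjusted p = 1.95e-05). The remaining genes were singled out after their values were seen. Saa1, Saa2 and Orm2, acute phase proteins, rose by log2 fold changes of 2.09, 2.47 and 2.44, and the 3 fibrinogen chains Fga, Fgb and Fgg fell by 0.84, 0.90 and 0.72. Reads shared between near-identical members of the Saa, Orm and Serpina3 families could be split differently by the counting, so their separate values are uncertain.

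**Figure D4:**
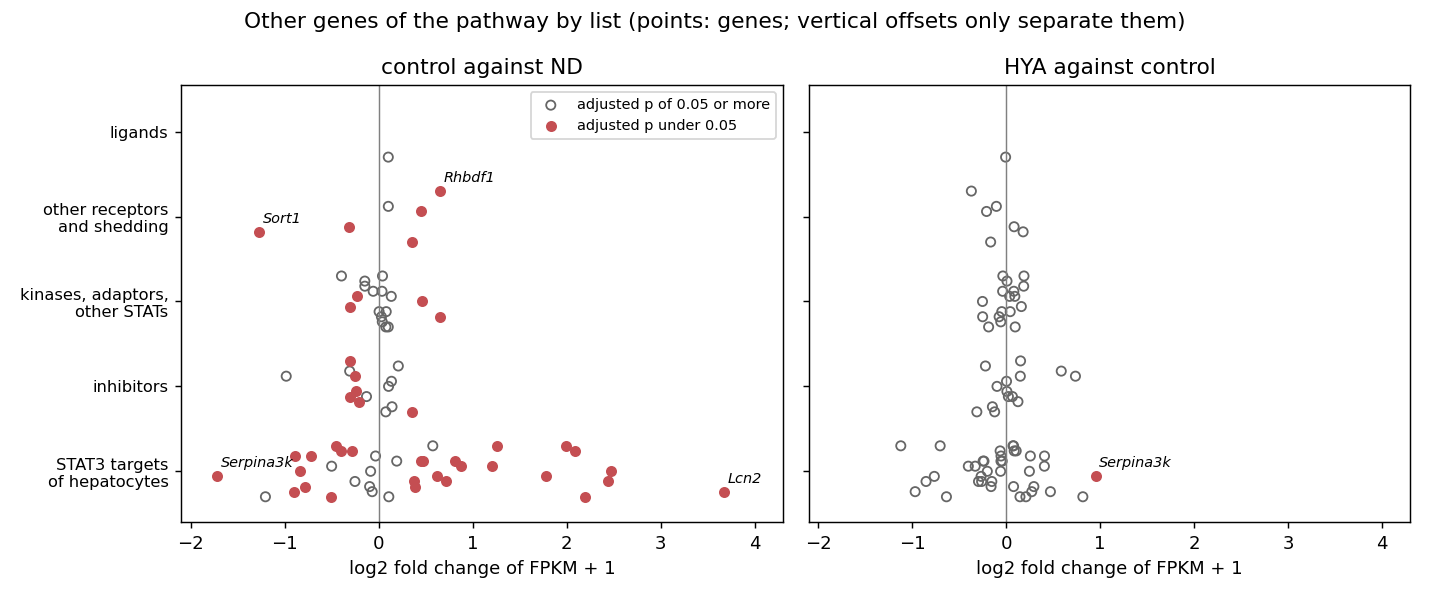
Log2 fold change of FPKM + 1 (x axis) of the 75 tested genes of the 5 lists for control against ND and HYA against control; filled points passed an adjusted p of 0.05. In control against ND 42 points are filled, from Serpina3k at -1.72 to Lcn2 at 3.67, and in HYA against control only Serpina3k, at 0.95.

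In HYA against control 1 of the 75 genes passed, beside 2.8% of all genes, and 23 had an unadjusted p under 0.05. The gene was Serpina3k, at chr12:104338486-104346144. Its levels were 897, 1221 and 1419 FPKM in control mice and 2394, 2046 and 2294 FPKM in HYA-treated mice, without overlap, beside 3445, 3818 and 4196 FPKM in ND-fed mice. The log2 fold change was 0.95 ± 0.14 (limma, adjusted p = 0.0168), and the call was lost without HYA-treated mouse 2 (adjusted p = 0.0751) or mouse 3 (adjusted p = 0.0516) and in a fit of only these groups (adjusted p = 0.136). Among the genes named above, Rhbdf1 had a log2 fold change of -0.37 (adjusted p = 0.0614), Jak3 -0.25 (adjusted p = 0.0535) and Mapk3 -0.25 (adjusted p = 0.0587), which did not pass in this limma fit. Under TPM 10 of the 75 genes passed, 1 higher and 9 lower, and voom on the recovered fragments called 5, 1 higher and 4 lower. Without control mouse 2, 6 passed, 2 higher and 4 lower, and without HYA-treated mouse 2 or 3 none passed.

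Between the related fatty acids, 1 of the 75 genes differed, again Serpina3k, beside 0.487% of all genes. It was 1294, 1268 and 1181 FPKM in LA-treated mice, all below the HYA-treated mice, with a log2 fold change of 0.84 ± 0.14 for HYA against LA (limma, adjusted p = 0.0380). This call was lost when any 1 of the 6 mice was left out (adjusted p = 0.0855 to 0.183). In LA against control none of the 75 genes passed with limma or with voom, and 2 had an unadjusted p under 0.05, Orm1 and Orm2. Serpina3k differed there by 0.11 ± 0.14 (adjusted p = 0.999).

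The genes most like Lifr across the 12 livers were Arhgap29, with a Pearson's r of 0.98 on the log2(FPKM + 1) scale, and Urad, an enzyme of uric acid breakdown, Cyp2c54, a cytochrome P450, Hagh, a glyoxalase, and Ces3b, a carboxylesterase, each with an r of 0.97, out of 10054 candidates. Cyp2c54 had group means of 187, 9.32, 51.1 and 11.1 FPKM in ND, control, HYA and LA. Arhgap29 had 11.2, 7.40, 9.38 and 7.84 FPKM and was the one of the 5 with the highest r for deviations from the group means, 0.75, while the other 4 had 0.17 to 0.48. In the opposite direction, Vat1 had the lowest r, -0.98, and was named after its values were seen. All 12 points share the 4 diets, so these r values mostly describe the group means.

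For the other members the 2 most similar genes were Ep300 and Herpud1 for Il6ra (r of 0.90 for both), Vrk3 and Mycl for Il6st (0.95 and 0.94), and Dusp8 and Tlnrd1 for Osmr (0.97 and 0.96). Tab2 and Hdac5 were nearest to Stat3 (0.90 and 0.89). Gadd45g and Fhod1 were nearest to Socs3 (0.87 and 0.86). Dusp8, a phosphatase of stress kinases, had means of 0.284, 1.56, 0.797 and 1.55 FPKM in ND, control, HYA and LA, the same order as Osmr.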

How the data were processed

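Liver RNA of 12 mice, 3 in each of 4 diet groups, had been sequenced from both ends on an Illumina HiSeq instrument. The authors deposited FPKM values in a single table. The submitters' processing notes name fastp, HISAT2 2.0.5, featureCounts 1.5.0-p3 and GRCm38. The annotation release and strand setting are not given in the sources used here. The methods name TPM, but the column totals of 342146 to 429286 are unequal, so the values were used as FPKM. Values multiplied by gene length were whole multiples of 1 step per column (100% within 0.05), which gave fragments. The steps imply a scaling total below the gene-assigned fragments in every ND-fed mouse and above them in every control mouse. In ND-fed mouse 1 it was 1.76e+07 beside 18443002 fragments, and in control mouse 1 2.15e+07 beside 19558364. The scaling was therefore not to plain library size, and its basis is not given in the sources used here.

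Tests covered genes that reached 1 FPKM on average over the 12 livers. log2(FPKM + 1) was fitted with limma 3.58.1 in R 4.3.3 (empirical Bayes with trend, all 12 mice in 1 fit, two-sided), with Benjamini-Hochberg adjustment over the 11083 genes and calls at an adjusted p under 0.05. Groups came from the sample labels. The p-values set differences against the spread between mice of a group, pooled over the 4 groups of 3 mice and moderated across genes. The SE of a gene is therefore the same in every comparison. The members and gene lists were chosen with earlier results of these data known. Genes named were the members, ligands with a mean of at least 0.1 FPKM, the 2 called genes with the lowest adjusted p per list and comparison, and the genes of highest r with each member. The method was tested on simulated data. Alternatives were a pseudocount of 0.1, no filter, median-ratio factors, TPM, only the 2 groups compared, a replicate block, a log2 fold change above 1, voom on fragments and leaving out each mouse. Promoter windows came from RefSeq and were found by symbol for all 6 members. The windows of Socs3 and Osmr lie inside the gene as placed in the table, so they do not cover the bases before that start.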

Additional observations from a re-analysis of the deposited data

Results flagged for a closer look

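The log2 fold change of Serpina3k between HYA-treated and LA-treated mice was 0.84 ± 0.14 (limma, Benjamini-Hochberg adjusted p = 0.0380). It stands out because the comparisons of HYA and of LA with control share the control mice, and the direct test of HYA against LA passed. Serpina3k was higher in HYA-treated than in control mice and in every HYA-treated than in every LA-treated liver (6 livers). Without any 1 of these mice the adjusted p was 0.0855 to 0.183, and with no filter on low values 0.112.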

How the results depend on the processing

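Lifr kept its direction under every alternative in control against ND, HYA against control and HYA against LA. Control against ND was -1.44 under TPM and -1.74 to -1.63 when 1 mouse was left out, HYA against control was 0.84 to 1.05, HYA against LA 0.74 to 0.99 and LA against control -0.02 to 0.19. Of the pathway genes, 11 passed a log2 fold change above 1 in control against ND. For HYA against control (1 gene) TPM gave 10, the fit of only the 2 groups 0, a replicate block 5, the fold threshold 0, voom 5 and leaving out 1 mouse 0 to 6, with 0 without HYA-treated mouse 2 or 3 and 6 without control mouse 2. For HYA against LA (1 gene) no filter gave 0, TPM 2, the block 2, the fold threshold 0, voom 3 and leaving out any 1 mouse 0. The cause of these differences was not tested. The replicate numbers did not pair the mice: over 18 same-numbered pairs the r of deviations was -0.40 to 0.29, and 3 were over 0.1. Over all genes, HYA against control had 310 calls but 0 in the fit of only the 2 groups and 511 with voom. Lifr was among the 310 and so lost its call when these groups were fitted alone. Depth limits the ligands and Osmr, which rests on 54 to 250 fragments.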
